A study of Rattus norvegicus with 18 samples.

Results

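The comparison described here followed neonatal rat heart muscle cells from 24 h to 48 h in medium conditioned by human embryonic stem cells (hESC). It was made of the 6 of 18 samples labelled as cardiomyocytes in conditioned medium, 3 taken at 48 h and 3 at 24 h. The cells came from ventricles of day 1 rats (n = 24), were purified on Percoll gradients and plated at 250000 cells a dish. They spent 24 h in cardiac medium before time zero, and the cardiac medium was then diluted by 50% with hESC medium that stem cells had conditioned. Fetal bovine serum (FBS) was kept at 5% and horse serum (HS) at 10%. The samples used beside them were diluted in the same way with unconditioned hESC medium (3 at each time) or were extracted at time zero (6 samples), before any dilution. Of the conditioned samples, 4 were on the larger of the deposited array tables (12 arrays), which carried every test, with 2 arrays at each time. The other 2 were on the smaller table (6 arrays), 1 at each time, and were used for direction only.

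Neonatal cardiomyocytes are cells at the end of their proliferative life. Around birth they go through a last round of DNA replication and then largely stop dividing, and cultures made from newborn ventricles also hold fibroblasts, endothelial cells and smooth muscle cells that go on dividing. A cell that divides first copies its DNA with the replication enzymes of S phase and then switches on a separate set of genes for G2 and mitosis, among them the kinase Cdk1, its partner cyclin B1 and the motor and kinetochore proteins that move chromosomes.

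The 4 conditioned arrays resembled each other closely. Intensities were scaled so that every array had the median of the table (96.84), floored at 0.05 of it (an intensity of 4.84) and taken to log2. The median of all probes moved by -0.01 between the times, and the Pearson correlation over probes was 0.968 and 0.971 within a time and 0.956 to 0.962 between the times. Before scaling, the median intensities of these arrays ran from 93.9 to 99.8. Both conditioned groups also varied less than the others, with a median SD over probes of 0.141 at 24 h and 0.133 at 48 h, against 0.263 and 0.478 in unconditioned medium and 0.519 at time zero. The 3 arrays of the table that stood apart from the rest were 2 of time zero and 1 of unconditioned medium at 48 h, and none was conditioned. The tests shared 1 estimate of the spread over all 12 arrays, so they were set by a spread larger than that of the arrays compared.

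Tested in that way, no gene with a name passed between 48 h and 24 h. Of 23694 probes 1 passed (0.00422%, limma with Benjamini-Hochberg adjustment), and it has no gene name in the tables used here. At an unadjusted p under 0.05 stood 598 probes (2.52%), of which 401 were higher (1.69%) and 197 lower (0.831%) at 48 h. The result turned on the spread and the scaling used. With the spread of the 4 conditioned arrays alone, which leaves 2 residual degrees of freedom, 1425 probes passed (6.01%), 867 of them higher (3.66%) and 558 lower (2.36%). Without the 3 arrays that stood apart, 82 passed (0.346%), 67 higher (0.283%) and 15 lower (0.0633%). Weighting the arrays by their quality, in the fit over all 12, called 1471 (6.21%), 884 higher (3.73%) and 587 lower (2.48%). Cyclic loess in place of median scaling called 61 probes, the 75th percentile 12, quantile normalization 7, and leaving out 1 conditioned array 6 to 16. Values below are from median scaling and the shared spread, unweighted, unless another fit is named, and no p-value covers separate preparations of cells, since the labels name none.

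Genes of G2 and mitosis stood higher at 48 h as a group. Of the 77 on the list 60 were tested, and their median log2 change was 0.84 where that of all probes was -0.01. Of the 60, 56 lay above the median of all probes (48.9% of all probes lay above 0). In 53 of the 60 both 48 h arrays lay above both 24 h arrays (25.6% of all probes did so), in 7 the groups overlapped, and in none were both 48 h arrays below (26.1% of all probes). At an unadjusted p under 0.05 stood 30 of the 60, all of them higher (1.69% of all probes). At least a 2-fold higher level without overlap was seen in 20 (2.87% of all probes) and a 2-fold lower one in none (2.47% of all probes). With 1 conditioned array left out, any of the 4, the count of 30 was 9 to 14, and without the conditioned 24 h replicate 2 there was also 1 lower. None passed the adjusted threshold with median scaling and the shared spread. With the spread of the 4 conditioned arrays alone 40 passed (3.66% of all probes passed as higher), and with array weights 39 (3.73%). With cyclic loess 12 passed (55 of 23694 probes as higher) and without the 3 arrays that stood apart 12 (0.283%). All of them were higher.

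Separase (Espl1), the protease that cuts the cohesin ring to let sister chromatids part, had intensities of 101 and 62.9 on the 24 h arrays and 280 and 266 on the 48 h arrays. Both 48 h arrays lay far above both 24 h arrays. The log2 change was 1.78 ± 0.51 (SE, 2 arrays against 2, limma adjusted p = 1.00), with an adjusted p of 0.00221 from the 4 conditioned arrays alone. Mki67, which encodes the proliferation antigen Ki-67, stood at 611 and 553 at 24 h and at 1529 and 1373 at 48 h. The arrays did not overlap, and the log2 change was 1.32 ± 0.38 (limma adjusted p = 1.00, or 0.000498 from the conditioned arrays alone). Kif20a, a kinesin of the midzone that cytokinesis needs, had 410 and 392 at 24 h and 920 and 989 at 48 h, a log2 change of 1.25 ± 0.38. Cenpf, a kinetochore protein, had 625 and 719 at 24 h and 1449 and 1743 at 48 h. Its log2 change was 1.25 ± 0.38, and a second probe of the gene gave 1.62 ± 0.49.

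The kinase pair at the entry to mitosis had the same pattern. Ccnb1, cyclin B1, stood at 726 and 844 at 24 h and at 1474 and 1574 at 48 h, a log2 change of 0.96 ± 0.40. Cdk1 stood at 2931 and 3181 at 24 h and at 7254 and 6193 at 48 h, a log2 change of 1.13 ± 0.48. Neither had overlapping arrays, and neither passed with median scaling and the shared spread (limma adjusted p = 1.00 for both), while the conditioned arrays alone gave 0.00258 and 0.00114. A second Cdk1 probe gave 0.67 ± 0.38, and the single pair of arrays of the smaller table had Cdk1 lower, at 483 and 387.

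**Figure D1:**
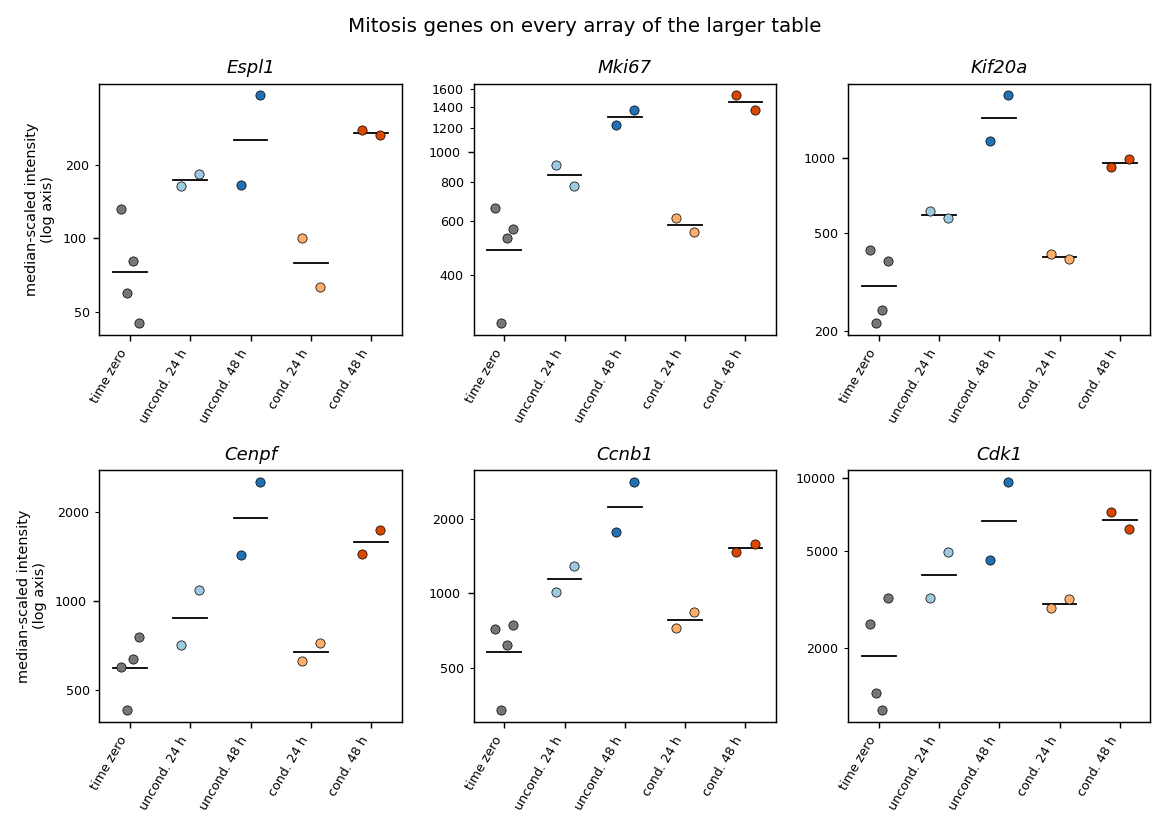
Median-scaled intensity (log axis) of 6 mitosis genes on each of the 12 arrays of the larger table. Points are arrays, lines are group means on the log scale, and for all 6 genes both 48 h arrays in conditioned medium lie above both 24 h arrays.

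In the promoters of these genes 2 short motifs were searched that are known from the control of late cell cycle genes: the cell cycle genes homology region (CHR, searched as TTTGAA or TTCGAA) and the CCAAT box, both searched on either strand over the 250 bases before the gene start in RefSeq's GRCr8 assembly of the rat. Promoters were matched for 52 of the 60 genes. A CHR was found in 29 of them (55.8%) and a CCAAT box in 40 (76.9%), where all 27457 promoters of that length had them in 17.3% and 34.3%. Both occurred in 27 (51.9%, against 6.22% of all promoters). Of the 30 mitosis genes at an unadjusted p under 0.05, 27 were matched. A CHR was in 14 of these (51.9%), a CCAAT box in 23 (85.2%) and both in 13 (48.1%). The DNA replication genes differed, with a CHR in 4 of 27 matched promoters (14.8%) and a CCAAT box in 14 (51.9%). The promoters of 5 of the genes described above are shown 5′ to 3′ on the gene's strand, because they let the arrangement of the motifs be read directly; capitals mark each CHR and CCAAT match, and ATTGG is a CCAAT box on the other strand.
Espl1 (chr7:135302466-135302715, plus strand): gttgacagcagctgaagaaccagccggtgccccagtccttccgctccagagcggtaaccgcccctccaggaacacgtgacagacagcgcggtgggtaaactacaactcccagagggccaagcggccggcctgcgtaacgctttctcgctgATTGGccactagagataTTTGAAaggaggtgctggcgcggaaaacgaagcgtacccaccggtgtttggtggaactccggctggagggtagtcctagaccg
Mki67 (chr1:199952594-199952843, minus strand): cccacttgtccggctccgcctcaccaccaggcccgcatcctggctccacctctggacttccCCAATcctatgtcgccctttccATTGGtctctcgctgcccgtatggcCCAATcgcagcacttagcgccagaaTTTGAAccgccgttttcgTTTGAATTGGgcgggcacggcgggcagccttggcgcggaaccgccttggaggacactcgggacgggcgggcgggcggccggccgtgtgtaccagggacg
Cdk1 (chr20:19265043-19265292, plus strand): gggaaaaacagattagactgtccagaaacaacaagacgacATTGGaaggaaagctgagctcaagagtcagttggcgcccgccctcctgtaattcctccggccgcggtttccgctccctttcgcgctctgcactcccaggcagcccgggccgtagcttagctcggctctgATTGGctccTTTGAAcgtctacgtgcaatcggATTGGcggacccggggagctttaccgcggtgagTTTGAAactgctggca
Ccnb1 (chr2:33655226-33655475, minus strand): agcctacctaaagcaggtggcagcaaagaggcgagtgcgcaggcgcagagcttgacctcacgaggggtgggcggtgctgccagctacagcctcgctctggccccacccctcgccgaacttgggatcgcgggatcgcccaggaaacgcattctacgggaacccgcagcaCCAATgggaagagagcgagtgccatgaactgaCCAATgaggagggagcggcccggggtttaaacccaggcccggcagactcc
Cenpf (chr13:103760887-103761136, minus strand): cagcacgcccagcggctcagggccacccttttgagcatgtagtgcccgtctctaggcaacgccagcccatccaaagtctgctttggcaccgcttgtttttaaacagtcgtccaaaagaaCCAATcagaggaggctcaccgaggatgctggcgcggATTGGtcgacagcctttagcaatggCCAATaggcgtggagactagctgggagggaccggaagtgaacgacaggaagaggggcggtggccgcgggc
In Espl1 a reversed CCAAT box is followed by a CHR 83 to 78 bases before the gene start. Mki67 has a CHR at 117 to 112 and another at 99 to 94 bases, and the latter shares a base with the reversed CCAAT box after it. Cdk1 has a CHR at 72 to 67 and at 16 to 11 bases. The windows of Ccnb1 and Cenpf hold CCAAT boxes and no match to these CHR letters. The matches are a description of sequence and carry no test.

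Genes of DNA replication and the G1/S step lay closer to the rest. Of 31 tested (48 listed), 22 lay above the median of all probes, the median log2 change was 0.29, and none was at an unadjusted p under 0.05 with the shared spread. With the conditioned arrays alone 4 passed, all higher (3.66% of all probes passed as higher). The smallest p belonged to Tk1, thymidine kinase, at 67.6 and 94.8 at 24 h and at 161 and 132 at 48 h, a log2 change of 0.87 ± 0.44 (unadjusted p = 0.0642). Ccna2, cyclin A2, had 1066 and 844 at 24 h and 1644 and 1647 at 48 h, a log2 change of 0.80 ± 0.41. Orc6, part of the origin recognition complex, was at 0.62 ± 0.34, and Pola1, the catalytic subunit of the primase-polymerase, lay in the other direction at -0.71 ± 0.41. The list of G1 cyclins and inhibitors of cyclin-dependent kinases (15 tested) had a median of 0.24 with none at an unadjusted p under 0.05. It also held the kinases Cdk2, Cdk4 and Cdk6 and the genes Rb1, Rbl2, Btg1, Gadd45b and Meis1. Ccnd1, cyclin D1, stood at 3983 and 4866 at 24 h and at 5489 and 5415 at 48 h (0.31 ± 0.41, adjusted p = 1.00). The mitosis list thus had the largest median of these lists, a difference that was not tested.

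The mitosis genes stood higher at 48 h in unconditioned medium as well. There the median change of the 60 genes was 0.73, 58 were above 0, and Mki67 went from 908 and 778 to 1225 and 1370. Over all probes the time change in unconditioned medium called 0 with limma, and 1234 stood at an unadjusted p under 0.05 (5.21%). The test of the difference between the time changes in the media called 0 of 23694 probes (0%) with limma, and 518 stood at an unadjusted p under 0.05 (2.19%). For the mitosis genes the median of that difference was 0.10, while all probes had 0.18, and 21 of the 60 lay above the latter. It was above 0 in 35 of the 60, where 64.7% of all probes were. At 24 h the unconditioned arrays had the higher Mki67, Kif20a and Ccnb1 levels, with 1012 and 1291 for Ccnb1 against 726 and 844. Against time zero, where 2 arrays stood apart, the mitosis list had a median of 0.48 at 24 h and 1.37 at 48 h in conditioned medium. All probes had 0.18 and 0.16. These comparisons share their arrays at 24 h, 48 h or time zero, so the values are side by side and not independent.

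Of the markers of other cells of the ventricle, the endothelial list lay highest. The arrays measured whole cultures, in which more cells of a type and more RNA per cell cannot be told apart. Of 18 endothelial markers tested, 15 lay above the median of all probes, the median log2 change was 0.59, and 5 were at an unadjusted p under 0.05, all higher (1.69% of all probes). That count was 0 without the conditioned 48 h replicate 3, 1 and 2 without the conditioned 24 h replicates 2 and 3, and 3 without the conditioned 48 h replicate 2. Their summed intensity in conditioned medium was 5029 to 5236 at 24 h and 7743 to 8231 at 48 h. In unconditioned medium it was 4894 to 5768 and then 6395 to 8850, and at time zero 2853 to 3901. None of the endothelial markers with a probe was at the floor on all 4 conditioned arrays. Their part in the mitosis result was not tested. None passed with median scaling and the shared spread. With the conditioned arrays alone 9 passed (3.66% of all probes passed as higher) and with array weights 8 (3.73%). With cyclic loess 1 passed (55 of 23694 probes as higher) and without the 3 arrays that stood apart 1 (0.283%). All of them were higher.

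The endothelial receptor Tie1 had the smallest p of these, at 381 and 351 at 24 h and 759 and 846 at 48 h, a log2 change of 1.13 ± 0.38 (limma adjusted p = 1.00, or 0.00149 from the conditioned arrays alone). Vwf, von Willebrand factor, went from 93.3 and 140 to 266 and 319, a log2 change of 1.35 ± 0.48. Nos3, the endothelial nitric oxide synthase, had 496 and 646 at 24 h and 989 and 1178 at 48 h, and 516 and 656 against 478 and 739 in unconditioned medium. The 48 h values of Tie1 and Vwf lay above the 24 h values in both media, and those of Nos3 did so in conditioned medium while the unconditioned arrays overlapped. Esam, an adhesion molecule of endothelial junctions, was at 0.85 ± 0.37.

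Smooth muscle and pericyte markers included the named gene with the smallest p of all. Of 12 tested, 11 lay above the median of all probes, with a median of 0.33. At an unadjusted p under 0.05 stood 3, all higher (1.69% of all probes). Calponin 1 (Cnn1), an actin-binding protein of smooth muscle that early heart muscle also makes, had intensities of 966 and 1051 at 24 h and 4311 and 4293 at 48 h. The paired arrays were nearly equal and the groups far apart, a log2 change of 2.09 ± 0.35 (4.27-fold, limma adjusted p = 0.0913, and 1.3e-07 to 0.708 over 16 alternatives). Cnn1 passed in 7 of the 16, among them quantile normalization (adjusted p = 0.00173) and cyclic loess (0.00205). A second probe gave 2.10 ± 0.41, and the smaller table had 615 and 2969. The 24 h level was the lowest of the larger table, since time zero had 1268 to 2122 and unconditioned medium 3630 and 2826 at 24 h and 4100 and 4860 at 48 h. Cnn1 did pass against time zero at 48 h, where it rose by 1.40 ± 0.30 (adjusted p = 0.00816), while at 24 h it lay at -0.70 ± 0.30 (adjusted p = 0.27).

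Some other genes of the smooth muscle contractile apparatus had the same order, while smooth muscle actin (Acta2) was level. Acta2 had 21290 and 23430 at 24 h and 22390 and 23700 at 48 h (0.045 ± 0.386), with overlapping arrays. Transgelin (Tagln) stood at 7757 and 8320 at 24 h and at 14680 and 15500 at 48 h, a log2 change of 0.91 ± 0.35. In unconditioned medium it lay the other way, from 15230 and 14480 to 8309 and 11030. Smooth muscle myosin heavy chain (Myh11) had 206 and 162 at 24 h and 369 and 461 at 48 h, 1.18 ± 0.35, and smoothelin (Smtn) was at 0.75 ± 0.40. The summed intensity of the 12 markers was 52840 to 54870 at 24 h and 66340 to 71930 at 48 h, against 70860 to 71980 and 45960 to 68690 in unconditioned medium. With the conditioned arrays alone 4 passed as higher and 1 as lower (3.66% and 2.36% of all probes).

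The remaining cell type markers were fewer or nearer to the rest. Of 6 fibroblast markers 5 lay above the median of all probes (median 0.27), with a summed intensity of 4471 to 6025 at 24 h and 5790 to 6559 at 48 h, and Thy1 was at 0.89 ± 0.42. Col1a1, the main collagen chain of fibroblasts, had overlapping arrays, with 2238 and 3838 at 24 h and 3260 and 3783 at 48 h (0.26 ± 0.39, adjusted p = 1.00). Of 14 leukocyte markers 5 lay above the median of all probes (median -0.15), and their sum was 2306 to 2343 at 24 h and 1792 to 1861 at 48 h. Less the median of all probes, the leukocyte median was 0.01 without the conditioned 24 h replicate 2. The leukocyte signalling adaptor Tyrobp stood at 678 and 741 at 24 h and 344 and 439 at 48 h (-0.87 ± 0.41, adjusted p = 1.00). The leukocyte genes Lyz2, Fcer1g and C1qb were at the floor on all 4 conditioned arrays.

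Cardiomyocyte markers, which define the cells named in the labels, were bright and nearly level. Of 14 listed 12 were tested, Myh6 having no probe with its name, and their median was 0.00 with a summed intensity of 256100 to 309800 at 24 h and 265800 to 281800 at 48 h. Cardiac troponin T (Tnnt2) had 28370 and 23050 at 24 h and 23060 and 33970 at 48 h (0.13 ± 0.40, adjusted p = 1.00). The natriuretic peptide genes Nppa, at 0.00 ± 0.37, and Nppb, at -0.13 ± 0.39, had overlapping arrays. Ryr2, the calcium release channel, was the exception, with 566 and 471 at 24 h and 1047 and 861 at 48 h (0.88 ± 0.36, unadjusted p = 0.0251). Of 30 sarcomere genes 2 were higher and 1 lower at an unadjusted p under 0.05 (1.69% and 0.831% of all probes). Their median was 0.02. Tropomyosin 1 (Tpm1), shared by heart and smooth muscle, had 2216 and 2310 at 24 h and 5579 and 6474 at 48 h, a log2 change of 1.41 ± 0.39, while its second probe gave 0.36 ± 0.44. The atrial light chain Myl7 lay lower, from 5581 and 6437 to 3263 and 3798 (-0.77 ± 0.36). In unconditioned medium the cardiomyocyte markers had a median of -0.54 and the sarcomere genes of -0.43, against -0.18 for all probes. The summed intensity of the cardiomyocyte markers there was 353900 to 379500 at 24 h and 223800 to 299600 at 48 h. That group at 48 h holds an array that stood apart from the rest.

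**Figure D2:**
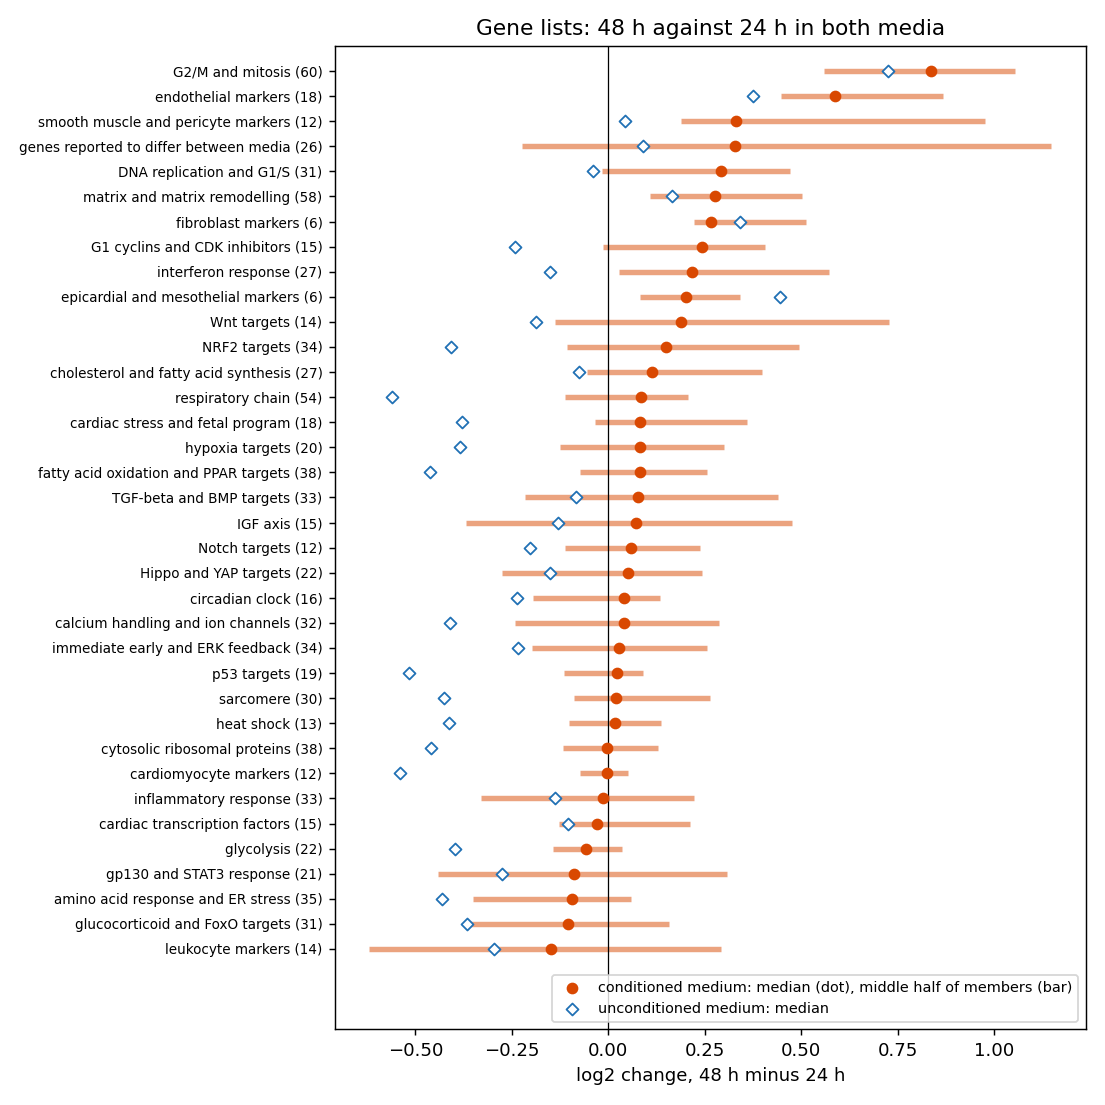
Median log2 change from 24 h to 48 h of each gene list with 6 or more tested members (number in brackets), in conditioned medium (dot, with a bar from the lower to the upper quartile of the members) and in unconditioned medium (diamond). The mitosis list lies highest in conditioned medium at 0.84 and the leukocyte markers lowest at -0.15.

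The list of extracellular matrix and its remodelling leaned to higher values. Of 58 tested 44 lay above the median of all probes, and the median was 0.28. At an unadjusted p under 0.05, 5 were higher and 1 lower (1.69% and 0.831% of all probes). Fibulin 2 (Fbln2) stood at 964 and 1163 at 24 h and at 2057 and 2409 at 48 h, a log2 change of 1.07 ± 0.38. The metalloproteinase inhibitor Timp2 went from 830 and 637 to 1288 and 1609 (0.99 ± 0.35). Both had 48 h arrays above the 24 h arrays, and the smaller table had both higher too. The fibrillar collagen gene Col11a1 had 2.77 and 7.17 at 24 h, the lower of them under the floor, and 29.1 and 70.2 at 48 h. The lower member, biglycan (Bgn), rested on 1 array, since it had 273 and 265 at 24 h and 263 on one 48 h array but was at the floor on the other. With the conditioned arrays alone 11 passed as higher and 2 as lower (3.66% and 2.36% of all probes).

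Apart from Cnn1, the genes of smallest p among those higher at 48 h came from several functions, and none passed with the shared spread and median scaling. With cyclic loess all 7 of them passed. Serpinb1a, an inhibitor of neutrophil proteases, had 304 and 356 at 24 h and 1686 and 1700 at 48 h, a log2 change of 2.36 ± 0.42 (5.14-fold, limma adjusted p = 0.136). It lay lower at time zero (55.1 to 91.3) and in unconditioned medium (122 and 218, then 309 and 662), and against time zero it rose by 4.53 ± 0.36 at 48 h (adjusted p = 1.17e-06). Isg15, the ubiquitin-like modifier induced by interferon, had 136 and 132 at 24 h and 545 and 519 at 48 h (1.99 ± 0.40, adjusted p = 0.353). Every other array of the table held it between 94.5 and 199. Nupr1, a stress-induced chromatin protein, stood at 191 and 272 at 24 h and at 872 and 702 at 48 h (1.78 ± 0.38, adjusted p = 0.478), and at 122 to 409 on the other arrays.

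Prkag2 and Myh3 had their lowest level of the table at 24 h in conditioned medium. Prkag2, the gamma subunit of the AMP-activated kinase that is mutated in a glycogen storage heart disease, had 563 and 542 at 24 h and 2004 and 2425 at 48 h (1.997 ± 0.42, adjusted p = 0.478). Time zero had 1159 to 2574 and unconditioned medium 4146 to 6769. Prkag2 at 24 h was lower than time zero by test (-1.65 ± 0.37, adjusted p = 0.0161) and at 48 h it was at 0.35 ± 0.37 (adjusted p = 0.68). The other 2 Prkag2 probes gave 0.40 ± 0.38 and 0.41 ± 0.37, and the smaller table had Prkag2 at 528 and 2987. Atp12a, a proton pump of the potassium-exchanging kind, had 115 and 113 at 24 h and 496 and 371 at 48 h (1.92 ± 0.41, adjusted p = 0.478), 108.9 to 235.8 at time zero and 1198 to 3521 in unconditioned medium.

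Myh3, the embryonic skeletal myosin heavy chain, stood at 38.0 and 17.2 at 24 h and at 109 and 96.2 at 48 h (2.01 ± 0.46, adjusted p = 0.783). Unconditioned medium held it at 641 and 915 at 24 h and 3073 and 4441 at 48 h, a time change of 2.27. The difference between those time changes was -0.27 ± 0.64 (adjusted p = 1.00). Myrf, a membrane-bound transcription factor, was at 1.62 ± 0.38 (adjusted p = 0.944).

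**Figure D3:**
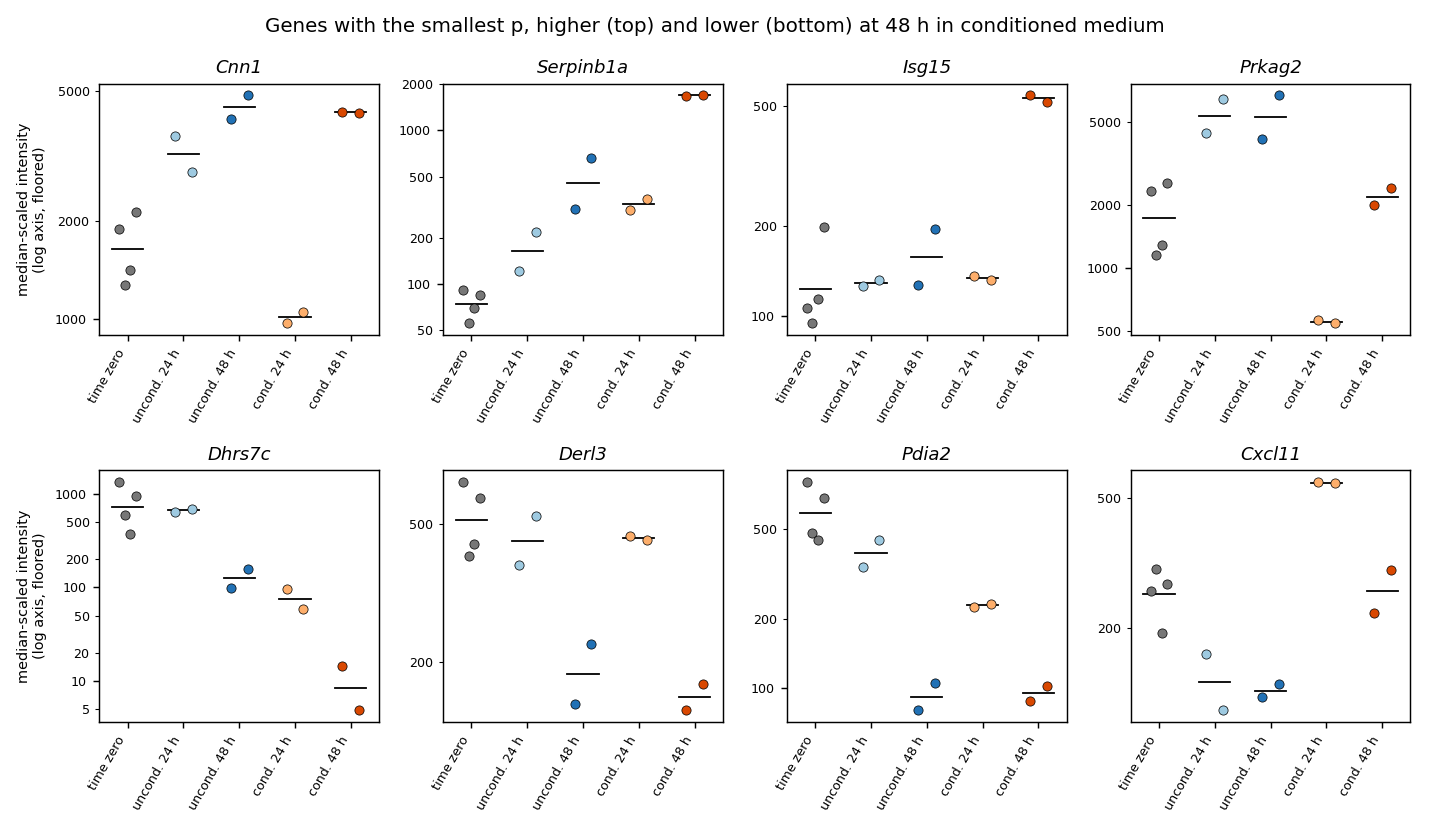
Median-scaled intensity (log axis, floored at 4.84) on each array of the larger table for 4 genes of small p among those higher (top) and 4 among those lower (bottom) at 48 h in conditioned medium, each taken from the 8 of smallest p. Points are arrays and lines are group means on the log scale; Isg15 is high on the 2 conditioned arrays at 48 h alone, and Derl3 and Pdia2 lie low at 48 h in both media.

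Among genes lower at 48 h the smallest p belonged to Dhrs7c, a dehydrogenase of the sarcoplasmic reticulum. It had 95.2 and 58.7 at 24 h, and 14.3 and a value under the floor at 48 h, a log2 change of -3.17 ± 0.57 with the floor in place (limma adjusted p = 0.136). It went the same way in unconditioned medium, from 647 and 693 to 98.5 and 158, and time zero had 371 to 1357. Derl3, which helps carry misfolded proteins out of the endoplasmic reticulum (ER), had 462 and 450 at 24 h and 145 and 173 at 48 h (-1.52 ± 0.36, adjusted p = 0.986), and its second probe gave -1.83 ± 0.55. Unconditioned medium had 380 and 527 at 24 h and 151 and 225 at 48 h. Pdia2, a protein disulfide isomerase of the ER, went from 228 and 234 to 87.9 and 102 (-1.29 ± 0.37). Both ER genes were low at 48 h in both media.

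The 250 bases before the start of Derl3 are shown because they hold the ER stress response element, searched as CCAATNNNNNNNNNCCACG on either strand, which contains a CCAAT box; capitals mark the match, which lies on the other strand 154 to 136 bases before the start. The element was found in 21 of all 27457 promoters (0.0765%) and in 5 of the 30 matched promoters of the amino acid response and ER stress list (16.7%).
Derl3 (chr20:12766466-12766715, minus strand): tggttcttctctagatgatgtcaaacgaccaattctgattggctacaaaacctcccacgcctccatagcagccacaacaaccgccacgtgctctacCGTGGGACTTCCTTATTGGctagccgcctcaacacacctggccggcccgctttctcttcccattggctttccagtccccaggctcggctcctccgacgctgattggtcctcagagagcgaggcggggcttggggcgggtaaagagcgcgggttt
Over that list, which did not include Derl3 or Pdia2, the values were near those of all probes. Of 35 genes tested 14 lay above the median of all probes, and the median was -0.09. At an unadjusted p under 0.05, 1 was higher (Nupr1) and 1 lower (Slc7a3), against 1.69% and 0.831% of all probes. Slc7a3 had 55.6 and 36.6 at 24 h, and 36.8 and a value under the floor at 48 h. Its arrays thus overlapped, and the smaller table had it at 32.2 and 31.2. Sdf2l1, a chaperone partner in the ER, was at -0.78 ± 0.42 (unadjusted p = 0.0817).

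The other genes named on the lower side were smaller or dimmer. Cxcl11, a chemokine that interferon induces, had 562 and 556 at 24 h and 223 and 302 at 48 h (-1.11 ± 0.36, adjusted p = 1.00), with -1.06 ± 0.38 on a second probe and 581 and 298 on the smaller table. Its 24 h level in conditioned medium was the highest of the table. Sh2b2, an adaptor of receptor kinases, went from 1362 and 1317 to 681 and 646 (-1.01 ± 0.34), and the smaller table had 1748 and 716. Sycp3, a component of the meiotic synaptonemal complex, stood at 95.4 and 126 at 24 h and at 46.5 and 36.4 at 48 h (-1.42 ± 0.43). Prnd, the prion-like protein doppel, was at -2.38 ± 0.73. Apeg3 was at -2.69 ± 0.85, with both 48 h arrays under the floor.

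Lists of responses to outside signals had smaller medians than the mitosis list. Of 27 interferon response genes 21 lay above the median of all probes (median 0.22). Isg15 and Usp18, the protease that removes Isg15 from proteins, were higher at an unadjusted p under 0.05 (1.69% of all probes). With the conditioned arrays alone 5 of the 27 passed, all higher (3.66% of all probes). Usp18 had 42.8 and 67.5 at 24 h and 115 and 146 at 48 h (1.27 ± 0.52). Among 34 targets of the antioxidant factor NRF2 23 lay above the median of all probes (median 0.15). At an unadjusted p under 0.05 stood 3, all higher (1.69% of all probes). With the conditioned arrays alone 8 of the 34 passed as higher and 1 as lower (3.66% and 2.36% of all probes). Aldh3a1, an aldehyde dehydrogenase, stood at 930 and 951 at 24 h and at 2118 and 2291 at 48 h (1.23 ± 0.39), and ferritin heavy chain (Fth1) was at 0.93 ± 0.39 in conditioned and -0.80 in unconditioned medium. On the smaller table Fth1 lay the other way, at 3628 and 3250. The 33 inflammatory genes had a median of -0.01, with Ptgs2, cyclooxygenase 2, at 1.02 ± 0.38 and Birc3, an inhibitor of apoptosis, at -0.998 ± 0.46. The 21 targets of gp130 and STAT3 had a median of -0.09. With the conditioned arrays alone 2 inflammatory genes passed as higher and 4 as lower, and of these targets 2 and 3. Over all probes 3.66% passed as higher and 2.36% as lower in that fit.

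Genes that earlier results of these same data had set apart between the media formed a list that was chosen on these arrays, so its values are a description. Of 26 tested 6 were higher and 2 lower at 48 h at an unadjusted p under 0.05 (1.69% and 0.831% of all probes). The median was 0.33. Thbd, thrombomodulin, had 1788 and 2009 at 24 h and 1830 and 1734 at 48 h (-0.09 ± 0.35), and Cyb561, an electron carrier, was at 0.11 ± 0.43, both with overlapping arrays. Reg3b, a secreted lectin induced through STAT3, stood at 2377 and 2915 at 24 h and at 4782 and 4434 at 48 h (0.81 ± 0.47, adjusted p = 1.00), while unconditioned medium had 98.9 to 130 and then 31.4 to 70.8. Kcnj8, a subunit of the potassium channel closed by ATP, had 442 and 420 at 24 h and 216 and 194 at 48 h (-1.08 ± 1.09), with a large error because other groups lay near the floor. Osmr, the oncostatin M receptor, had 151 and 161 at 24 h and 103 and 105 at 48 h (-0.59 ± 1.12).

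Direction on the smaller table was the same for most genes that stood out. Over all 4613 shared genes 2909 had the same sign (63.1%), and over the 115 shared genes at an unadjusted p under 0.05 it was 108 (93.9%), with 92 of 98 higher and 16 of 17 lower. Of the 16 genes named above by smallest p 7 were shared, and all 7 had the same sign. For the mitosis list 22 of 24 were higher, with a median of 0.64, and of the endothelial markers 10 of 10 lay above the median of that table's genes. The labels do not say whether the 2 tables used RNA of different dishes, so this is no independent replicate by design.

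**Figure D4:**
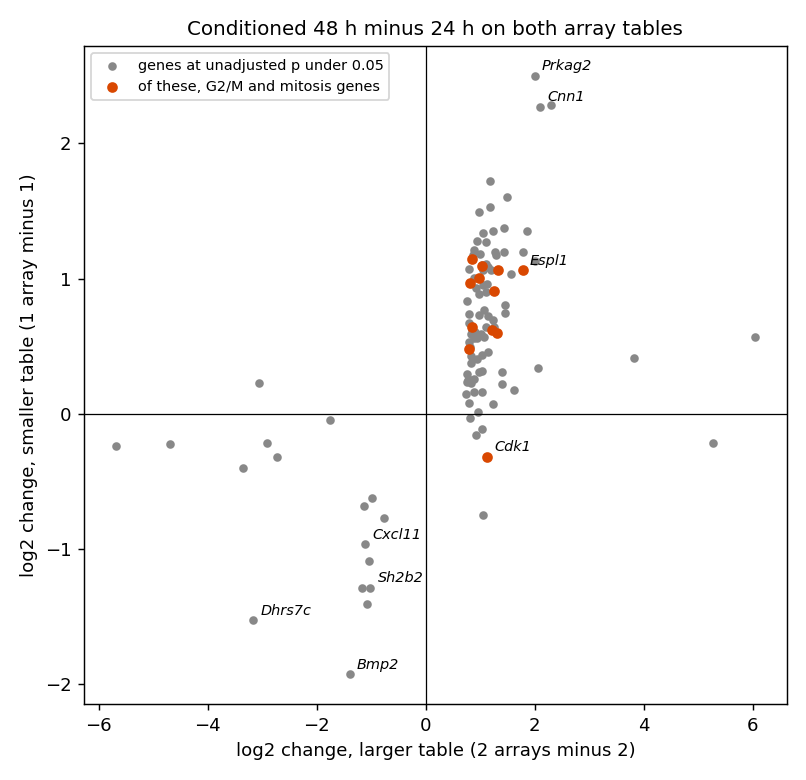
Log2 change from 24 h to 48 h in conditioned medium on the larger table (x axis, 2 arrays minus 2) and on the smaller table (y axis, 1 array minus 1) for the 115 shared genes at an unadjusted p under 0.05 on the larger table, with mitosis genes in colour. Most points lie in the quadrants of equal sign (108 of 115), and Cdk1 is the 1 of 12 mitosis genes that does not.

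The single probe that passed, probe 107093, had 7.85 and 5.22 at 24 h and 60.6 and 81.9 at 48 h, a log2 change of 3.46 ± 0.44 (limma adjusted p = 0.0085). Its 48 h level lay below the 119 to 164 of time zero and the 206 to 478 of unconditioned medium, so the 24 h arrays were the ones that stood out. With a floor of 0.2 of the median it was at 1.86 and did not pass (adjusted p = 0.619), nor without the conditioned 48 h replicate 3 (0.0913), without a filter on level (0.124) or with a pseudocount of 0.5 of the median, where it was at 1.12 (adjusted p = 1.00). At an unadjusted p under 0.05 stood 263 genes, of which 35 had at least 1 conditioned array at the floor. Of 60 such genes with more than 1 probe, 46 had all other probes in the same direction.

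The interaction of time and medium named no gene that passed. The smallest p on the higher side belonged to Fn3k, fructosamine 3 kinase, with 39.3 and 57.5 at 24 h and 108 and 118 at 48 h in conditioned medium, against 267 and 299 and then 101 and 159 in unconditioned medium. The 48 h levels of the media thus lay close together. Klf15, a transcription factor of cardiac metabolism, had 5.58 and 24.5 at 24 h and 45.3 and 53.1 at 48 h in conditioned medium, against 119 and 110 and then 46.2 and 72.9. On the lower side Tmigd1, Calb2, Fmo2 and Yap1 had their highest values, 201.7 to 345.2, on the unconditioned 48 h array that stood apart from the rest.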

How the data were processed

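Expression was measured on 1-colour CodeLink arrays with biotin-labelled RNA, per the labels. The deposited values are linear intensity; scanner settings, background correction and normalization by the authors are not given in the sources used here. The medians of the arrays differed, and the lowest values were near 0, so arrays were brought to a common median within each table, floored at 0.05 of it and taken to log2. A filter on the mean over arrays, set at its 30th percentile, kept 23694 of 33849 (13091 with 1 gene symbol, 9953 genes). Of the 33849, 16753 had 1 gene symbol, 165 several and 16931 none, in GEO's platform annotation, with symbols updated through RefSeq's table (GRCr8). A gene was represented by its probe of highest mean.

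The model over all 12 arrays used R 4.3.3 and limma 3.58.1 (lmFit, then eBayes allowing a trend, 7 residual and 10.4 prior degrees of freedom), with p-values adjusted by Benjamini-Hochberg over all probes. Errors are SE of the log2 change. The smaller table was scaled likewise (6934 of 9906 probes). With few arrays a group, their number limits the precision. The labels name no separate cultures, and the p-values therefore cover array-to-array spread only, which may be technical. Named genes were the 8 of smallest p in each direction with arrays that did not overlap (called genes would have come first, up to 12, and none with a name passed), up to 4 of smallest p of each list described, the genes Mki67, Cdk1, Ccnb1, Ccnd1, Myh6, Nppa, Nppb, Tnnt2, Col1a1 and those set apart between media, and up to 4 in each direction for the interaction. The members and gene lists were chosen with earlier results of these data known. Lists are described by counts and medians. Alternatives were quantile, cyclic loess and 75th percentile scaling, other filters, floors and a pseudocount, no trend, array weights, only the groups compared, leaving out the 3 arrays that stood apart, averaged probes, and each conditioned array left out. The pipeline was tested on simulated data. Plots used matplotlib 3.10.9 and Python 3.11.15.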

Additional observations from a re-analysis of the deposited data

How the results depend on the processing

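The number of probes called between 48 h and 24 h in conditioned medium, 1 as reported, depended on the spread used. It was 1425 with only the groups compared, 1471 with array weights (1114 of them among the 1425) and 82 without the 3 arrays that stood apart, all 82 among the 1425. It was 61 with cyclic loess, 12 with the 75th percentile, 7 with quantile normalization, 4 with a filter at the 50th percentile and 3 without the intensity trend. It was 1 with a pseudocount of 0.5 of the median, but not the same probe. It was 0 without a filter, with the floor raised to 0.2 and with probes of a gene averaged, and 6 to 16 with each conditioned array left out in turn. In those last fits the lone array is assumed to vary like the other groups. The cause was not tested. The difference between the time changes in the media, 0 probes as reported, was called for 17 without the 3 arrays that stood apart and for 4 to 11 with an array left out, and for 0 under every other setting tried.

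Of 60 mitosis genes, 30 were higher at an unadjusted p under 0.05 as reported, 50 with only the groups compared, 48 with array weights and 9 to 14 with an array left out, with 1 lower without the conditioned 24 h replicate 2. Their median less that of all probes was 0.84 and ran from 0.725 to 0.887 over the 16 alternatives. The endothelial markers above the median of all probes numbered 14 to 16, while those at an unadjusted p under 0.05, 5 as reported, numbered 13 to 14 with array weights, with only the groups compared or without the 3 arrays that stood apart, 0 to 3 with an array left out, and 4 to 7 under the rest. The share of genes with the same sign on the smaller table, 93.9% as reported, was 86.7% with quantile normalization and 73.0% without a filter. Of the named genes, none that passed under a setting had the opposite sign there. Other called probes were not checked in this way, and settings that change only the spread keep the sign by construction. No paired analysis was possible because the labels carry no replicate numbers, dish or preparation. Low signal limits the dim genes: 100 of the 598 probes at an unadjusted p under 0.05 had a conditioned array at the floor.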

Other observations

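Signalling ligands and binding proteins outside the lists described above held some of the larger differences from 24 h to 48 h in conditioned medium. Bmp2, a bone morphogenetic protein, had intensities of 3114 and 3021 at 24 h and 1194 and 1145 at 48 h (log2 change -1.39 ± 0.49, limma adjusted p = 1.00). It lay in the same direction in unconditioned medium, from 3056 and 3071 to 1126 and 1877, and on the smaller table, with 1372 and 361. The activin subunit Inhba lay the other way, from 978 and 1087 to 1753 and 2025 (0.87 ± 0.39). A list of 33 genes held ligands, receptors, antagonists and targets of TGF-beta and BMP. Of these 1 was higher (Inhba) and 1 lower (Bmp2) at an unadjusted p under 0.05. Over all probes 1.69% were higher and 0.831% lower, and the median of the 33 was 0.08. With the conditioned arrays alone 5 of the 33 passed as higher and 3 as lower (3.66% and 2.36% of all probes). The 15 genes of the insulin-like growth factor axis had a median, less that of all probes, of 0.082. Among them the secreted binding protein Igfbp7 had 2155 and 2304 at 24 h and 4467 and 5419 at 48 h (1.14 ± 0.37). Igfbp3 was at 0.94 ± 0.43. Igfbp5 lay the other way, with 89.4 and 43.2 at 24 h, and 21.4 and a value under the floor at 48 h (-2.61 ± 1.01). Scd2, a desaturase of fatty acid synthesis, stood at 1984 and 2131 at 24 h and at 4714 and 3828 at 48 h (1.05 ± 0.38), with 2114 and 3262 in unconditioned medium at 48 h.

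The lists of the respiratory chain (54 genes, median 0.08), fatty acid oxidation (38, 0.08) and cytosolic ribosomal proteins (38, 0.00) lay close to the median of all probes in conditioned medium, with no member at an unadjusted p under 0.05. In unconditioned medium the same lists had medians of -0.56, -0.46 and -0.46, against -0.18 for all probes, and that group at 48 h holds an array that stood apart.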
